A study of Mus musculus with 9 samples.

Results

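The Pax, Lhx, Irx, Dlx and Nkx genes and the sine oculis homeobox genes encode transcription factors that pattern the embryo, and in the MYCN-driven T cell lymphoma profiled here nearly all of them lay under Polycomb peaks. The set holds every protein-coding RefSeq mouse gene with a symbol of Pax, Lhx, Irx or Dlx and a single digit, the sine oculis homeobox genes, and every Nkx gene whose symbol ends in 2 numbers joined by a hyphen. This rule gave 49 of 21887 protein-coding genes, of which 9 are Pax, 8 Lhx, 6 Irx, 6 Dlx, 6 sine oculis homeobox and 14 Nkx genes. The rule itself uses gene names only. Thymic lymphoma cells of C57BL/6J mice were profiled by ChIPmentation, a chromatin immunoprecipitation in which a transposase inserts the sequencing adapters on the bead-bound chromatin. The 7 immunoprecipitations, with 1 library each, were against EZH2, SUZ12, H3K27me3, H3K4me3, H3K27ac, N-MYC and p300, and 2 input libraries were not used here. All libraries carry the same label for strain, tissue and disease, so there is no untreated or normal thymus group. The age of the mice, the promoter or Cre that drives MYCN and the number of animals behind each library are not given in the sources used here.

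Paired-box (Pax) and LIM-homeodomain (Lhx) factors set up organs such as the eye, kidney, spinal cord and forebrain. Iroquois (Irx) factors act in the heart and nervous system, Distal-less (Dlx) factors in limb, jaw and forebrain, sine oculis homeobox factors in eye, muscle and kidney, and NK-class (Nkx) factors in heart, thyroid, gut and neural tube. EZH2 is the catalytic subunit and SUZ12 a core subunit of Polycomb repressive complex 2, which methylates histone H3 at lysine 27 (H3K27me3). In differentiated cells this mark is known to lie over developmental regulators of other lineages. H3K4me3 and H3K27ac mark active promoters, p300 is an acetyltransferase that deposits H3K27ac, and N-MYC is the MYC-family factor that gives the lymphoma its name.

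A gene was read at its start, which is 1 kb on either side of the 5′ end, and over its body, from end to end. A call means that at least 1 bp lay under a peak. Strand was known for 35 of the 49 genes, and for the other 14 either end was read. The value given is the fold enrichment of the strongest overlapping peak, the authors' linear ratio. Each peak carries 1 such value wherever it overlaps, so for a wide peak it does not measure the level at the start itself. A missing peak means only that none was called. Each antibody had a single library, so nothing here could be tested against replicate spread and p-values are left out. The read depth is unknown, and the 95% Wilson intervals of the shares describe counting over genes only.

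To show the DNA behind these calls, the 250 bases before the start of 4 of the genes are printed (RefSeq, GRCm38.p6, each 5′ to 3′ on the gene's strand, CpG in capitals). Nkx2-3 and Pax2 had strong EZH2 calls with the whole stretch under EZH2, SUZ12 and H3K27me3 peaks and none of it under the other 4 lists. Dlx2 carried H3K4me3 as well, over 32 of its 250 bases. Six5 was the active exception, with all 250 bases under EZH2, H3K4me3 and H3K27ac and none under SUZ12 or H3K27me3.
Nkx2-3, chr19:43612075-43612324, plus strand, 14 CpG: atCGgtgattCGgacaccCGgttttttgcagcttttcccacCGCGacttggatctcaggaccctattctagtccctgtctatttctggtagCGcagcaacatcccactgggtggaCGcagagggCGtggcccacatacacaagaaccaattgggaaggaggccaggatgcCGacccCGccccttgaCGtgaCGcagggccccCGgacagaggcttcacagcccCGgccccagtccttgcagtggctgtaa
Pax2, chr19:44746351-44746600, plus strand, 5 CpG: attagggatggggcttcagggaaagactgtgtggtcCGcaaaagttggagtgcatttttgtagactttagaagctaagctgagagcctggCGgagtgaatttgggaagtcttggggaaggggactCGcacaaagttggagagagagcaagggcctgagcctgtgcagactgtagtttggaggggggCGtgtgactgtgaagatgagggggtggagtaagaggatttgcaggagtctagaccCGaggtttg
Dlx2, chr2:71546755-71547004, minus strand, 24 CpG: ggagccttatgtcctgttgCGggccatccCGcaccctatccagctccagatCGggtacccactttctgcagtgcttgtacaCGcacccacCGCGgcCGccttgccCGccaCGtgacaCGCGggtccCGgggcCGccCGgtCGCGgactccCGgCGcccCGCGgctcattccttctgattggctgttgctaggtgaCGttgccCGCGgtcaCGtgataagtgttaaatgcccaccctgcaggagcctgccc
Six5, chr7:19094294-19094543, plus strand, 13 CpG: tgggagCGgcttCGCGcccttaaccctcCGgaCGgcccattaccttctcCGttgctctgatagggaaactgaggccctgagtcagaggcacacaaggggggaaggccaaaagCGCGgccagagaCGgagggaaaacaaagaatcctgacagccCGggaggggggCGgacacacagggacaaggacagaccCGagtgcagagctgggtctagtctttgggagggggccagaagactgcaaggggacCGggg

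The 4 stretches were chosen by EZH2 or H3K4me3 fold, so they cannot show whether CpG number follows EZH2. Pax2, with 5 CpG, had an EZH2 fold of 18.8, while Six5, with 13, had 4.71. A promoter sequence (250 bases before to 50 after a start) was matched for 35 of the 49 genes, and its CpG number ran from 4 to 40 with a median of 17.0. The median was 13.0 over the 17492 protein-coding genes with such a sequence. It was 22.0 over the 1985 of them with EZH2, SUZ12 and H3K27me3 at that start, 22.0 over the 7722 with H3K4me3 and no H3K27me3, and 2 over the 5078 with no peak. The E-box CACGTG, the same on both strands, was present in 4 of the 35 (11.4%), namely Dlx2, Nkx1-1, Nkx1-2 and Nkx2-2, against 7.91% of all promoters. None of the 4 had an N-MYC peak at its start, and the Dlx2 stretch above holds the motif 2 times.

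At the starts, Polycomb calls covered almost the whole set. EZH2 was called at 45 of the 49 genes (91.8%, interval 80.8 to 96.8), against 43.4% of all protein-coding genes. SUZ12 was also called at 45 (91.8%), against 13.2% of all genes, and H3K27me3 at 47 (95.9%, interval 86.3 to 98.9), against 25.4%. All 3 lists met at 44 genes (89.8%, interval 78.2 to 95.6), against 12.2% of all genes. The EZH2 share of all genes was thus more than 3 times their SUZ12 share, while in the developmental families the 2 shares were equal. The EZH2 list held 18730 peaks and the SUZ12 list 11100, and the part of list length in this contrast was not tested.

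The active lists were the reverse. H3K4me3 was called at 5 starts (10.2%, interval 4.44 to 21.8), against 48.9% of all genes. N-MYC was called at 2 (4.08%, interval 1.13 to 13.7), against 31.0%. H3K27ac and p300 were each called at 1 (2.04%, interval 0.361 to 10.7), against 49.8% and 37.4% of all genes. At least 1 of these 4 lists was present at 5 starts (10.2%), against 53.5% of all genes. H3K4me3 together with H3K27me3, the bivalent combination known from stem cells, was found at 4 starts (8.16%, interval 3.22 to 19.2). The share of all genes was 7.20%, inside that interval, but far fewer of all genes had H3K27me3. Counted among starts with H3K27me3 only, the combination was at 4 of 47 in the families and at 1575 of 5562 over all genes. H3K4me3 without H3K27me3 was found at 1 start (2.04%) against 41.7%, and no peak of any list at 1 (2.04%) against 29.1%. The combination of all 3 Polycomb lists with none of the 4 active lists was found at 40 genes (81.6%, interval 68.6 to 90.0), against 7.40% of all genes. These shares count any overlap. When the summit itself had to lie in the window, EZH2 fell to 53.1% and SUZ12 to 42.9% of the family genes. H3K27me3 fell to 20.4% and the combination of the 3 to 10.2%. The shares of all genes under the summit rule are not given here. These lower values therefore cannot be set against the shares of all genes above, which count any overlap.

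**Figure D1:**
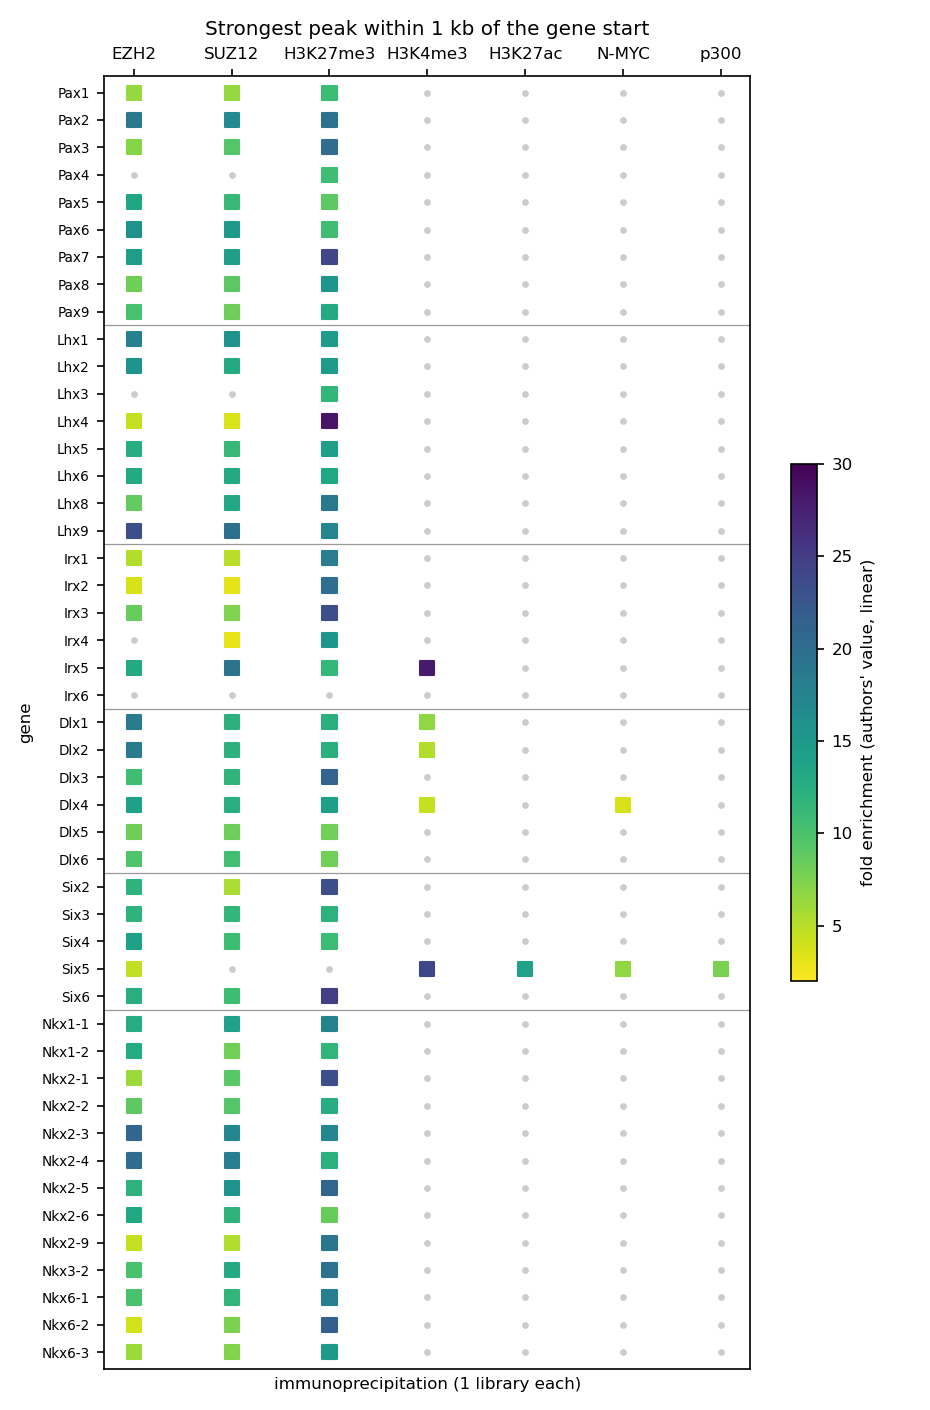
Strongest peak within 1 kb of the start of 47 of the 49 genes (rows) in each of the 7 lists (columns, 1 library each). Squares are coloured by the authors' linear fold enrichment, small grey dots mark no call, and lines separate the families. The EZH2, SUZ12 and H3K27me3 columns are filled at nearly every gene shown, while the other 4 columns hold 9 squares in all, in 5 genes.

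Over gene bodies the same division was seen. EZH2 was called over 47 of the 49 bodies (95.9%, all genes 47.1%), SUZ12 over 46 (93.9%, all genes 14.9%) and H3K27me3 over 48 (98.0%, all genes 30.2%). H3K4me3 was called over 7 (14.3%, all genes 54.0%), H3K27ac over 2 (4.08%, all genes 57.9%), N-MYC over 3 (6.12%, all genes 35.3%) and p300 over 2 (4.08%, all genes 42.0%). The family genes were shorter, with a median length of 6325 bp against 17169 bp for all genes, so they offered fewer bases for an overlap.

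Hox, Sox and T-box genes, which also regulate development, were read in the same way. Of 39 Hox genes, 35 (89.7%, interval 76.4 to 95.9) had all 3 Polycomb lists at the start and 2 (5.13%) had H3K4me3. Of 32 Sox and T-box genes, 22 (68.8%, interval 51.4 to 82.0) had all 3 and 9 (28.1%, interval 15.6 to 45.4) had H3K4me3. For these 2 readouts the intervals of the 3 groups overlap. H3K27ac was called at 7 of the 32 Sox and T-box starts (21.9%, interval 11.0 to 38.8), an interval above that of the families (0.361 to 10.7). All 3 Polycomb lists with no active list were found at 16 of the 32 (interval 33.6 to 66.4%), an interval below that of the families (68.6 to 90.0). The Hox genes were close to the families in both readouts. H3K27ac was called at 1 of 39 Hox starts (2.56%, interval 0.454 to 13.2). All 3 Polycomb lists with no active list were at 33 of the 39 (84.6%, interval 70.3 to 92.8). The differences between the groups were not tested.

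**Figure D2:**
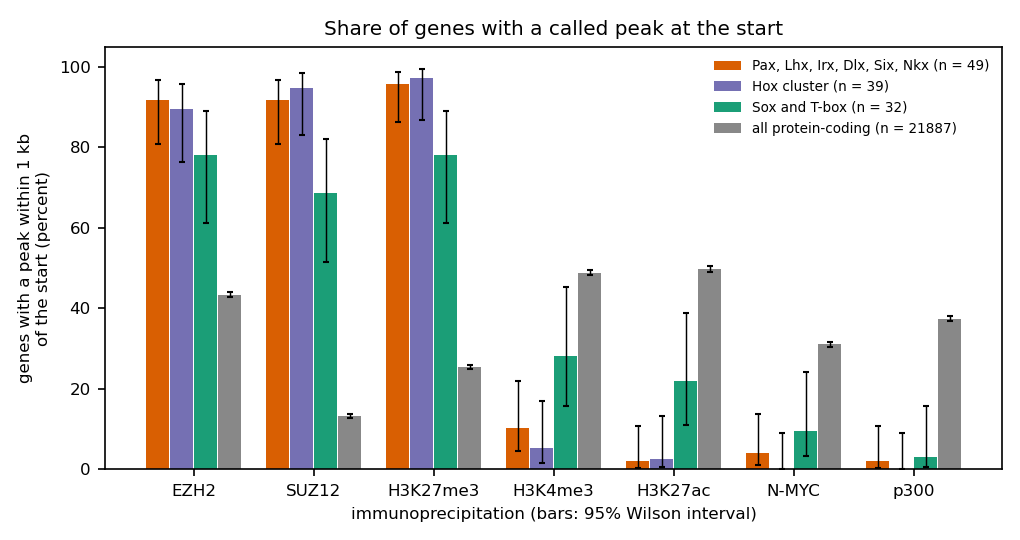
Percent of genes with a peak within 1 kb of the start (y axis) for each immunoprecipitation (x axis), with bars for the 49 family genes, 39 Hox genes, 32 Sox and T-box genes and 21887 protein-coding genes. Error bars are 95% Wilson intervals; the 3 Polycomb lists are at 91.8 to 95.9% in the family genes and the other 4 lists at 2.04 to 10.2%.

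The Polycomb peaks at these genes had higher median folds than those over all protein-coding genes with a call, but lower ones than those at Hox genes. Among genes with a call at the start, the median EZH2 fold was 11.9 in the families (from 3.70 at Irx2 to 23.3 at Lhx9) and 5.84 over all protein-coding genes. The median SUZ12 fold was 11.2 (from 3.09 at Irx4 to 19.9 at Lhx9) against 5.82, and the median H3K27me3 fold was 15 (from 8.11 at Dlx5 and Dlx6 to 28.5 at Lhx4) against 9.19. Restricting both sides to genes with all 3 lists left medians of 12.0 and 6.56 for EZH2, 11.4 and 6.08 for SUZ12 and 15.2 and 13.1 for H3K27me3, with 44 family genes and 2662 genes in all. The gap was thus larger for the 2 complex subunits than for the mark. At Hox starts with a call the medians were 14.8 for EZH2, 13.7 for SUZ12 and 18.8 for H3K27me3. At Sox and T-box starts they were 8.88, 9.07 and 15.4. By EZH2 fold at the start, 8 family genes were among the top 100 genes of 9500 and 24 among the top 500.

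The peaks were also wider, a comparison of medians that was not tested. The widest EZH2 peak reaching the start had a median width of 8475 bp in the 44 family genes with all 3 lists, against 2017 bp over the 2662 genes. For SUZ12 the widths were 11596 and 2620 bp, and for H3K27me3 20337 and 7344 bp. The widest EZH2 peak of the families was 33197 bp long, chr2:105658636-105691832, and lay over Pax6, a regulator of eye, brain and pancreas, with a SUZ12 peak of 34343 bp and an H3K27me3 peak of 42663 bp. Hox genes, which stand in clusters and share peaks, were wider still, with an EZH2 median of 34509 bp. The median share of the gene body under Polycomb peaks over all 49 genes was 77.9% for EZH2, 85.3% for SUZ12 and 100% for H3K27me3. The share differed between families: the 9 Pax genes had medians of 14.4, 14.9 and 59.3%, and the 14 Nkx genes 100% for each list. Pax5, with the longest body of the set at 185947 bp, had 5.41% under EZH2. The same medians over the 2662 genes with all 3 lists were 4.69, 5.33 and 28.9%, and those genes are longer, with a median of 31468 bp.

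**Figure D3:**
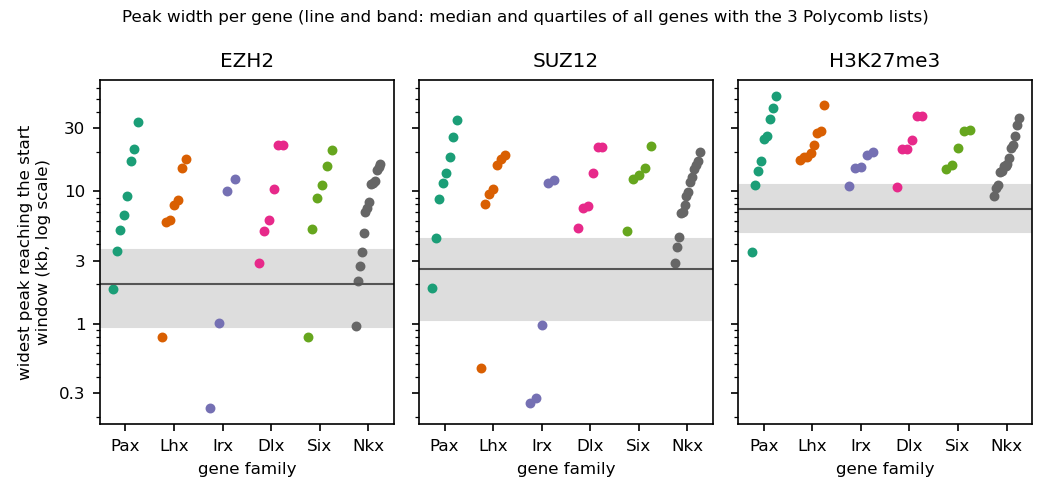
Width in kb (log scale) of the widest EZH2, SUZ12 and H3K27me3 peak reaching the start, 1 point per gene, by family. The grey line and band are the median and quartiles of the 2662 genes with all 3 lists; most points lie above the band, and Irx2 (EZH2, 231 bp) and Irx4 (SUZ12, 256 bp) are the lowest.

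Around the 35 starts with a known strand, the calls reached farther downstream than upstream. Of these genes, 11 are shorter than 5 kb and 18 shorter than 10 kb, so at those distances part of the reading lies past the gene. The start here is the outer gene end. For some genes the nearest start with a promoter sequence lies inside, by 9699 bp at Lhx4, 9032 bp at Nkx2-2 and 7226 bp at Six3. For others it is the gene end itself. Peaks around such inner starts count as downstream here, and their part in the difference was not tested. EZH2 lay over the start itself at 85.7% of the genes, over the base 5 kb downstream at 77.1% and over the base 5 kb upstream at 34.3%. The SUZ12 shares at these positions were 82.9, 77.1 and 40.0%, and those of H3K27me3 94.3, 91.4 and 74.3%. At 10 kb downstream EZH2 still lay over 48.6% of the genes and H3K27me3 over 85.7%. Over the 17492 protein-coding genes with a strand, EZH2 lay over 22.8% of starts and over 1.95% and 1.45% of bases 5 kb downstream and upstream. H3K4me3 lay over 45.1% of those starts, and over 5.71% of the family starts.

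**Figure D4:**
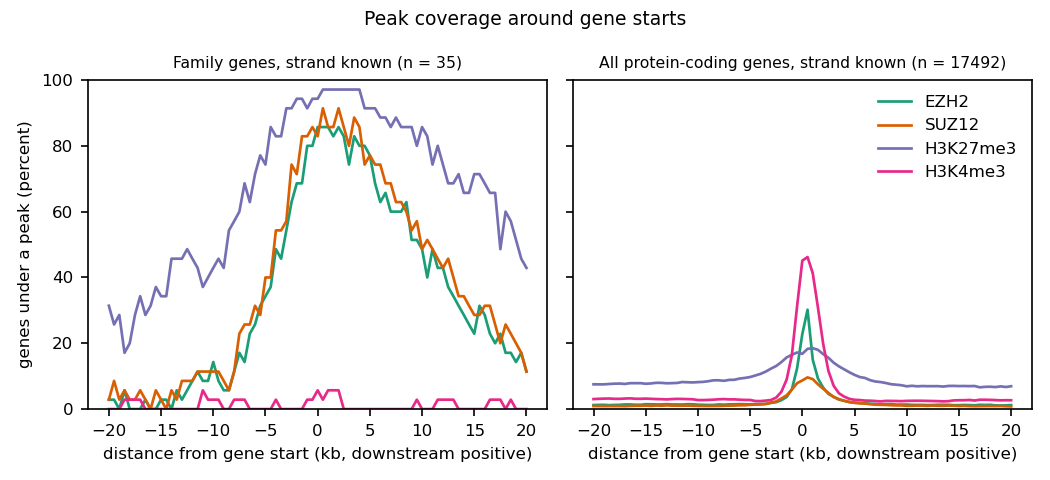
Percent of genes whose base at a given distance from the start (x axis, kb, downstream positive) lies under a peak, for 35 family genes and 17492 protein-coding genes with a known strand. The start is the outer 5′ end of the gene, and some genes have their nearest promoter start farther inside. In the families EZH2, SUZ12 and H3K27me3 form broad plateaus that fall off more slowly downstream (EZH2 77.1% at 5 kb) than upstream (34.3%); over all genes EZH2 and H3K4me3 form a narrow maximum at the start.

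Among the Pax genes, 8 of 9 had all 3 Polycomb lists at the start and none had an active list there. Pax2, a kidney and optic-nerve regulator, had the highest EZH2 fold at 18.8, with SUZ12 at 16.7 and H3K27me3 at 19.6. The lowest EZH2 and SUZ12 calls were at Pax1, a regulator of the vertebral column and thymic epithelium, with EZH2 at 6.42, SUZ12 at 6.45 and H3K27me3 at 10.8 at the start. Pax4, an islet factor, had H3K27me3 (10.6) and neither subunit at either gene end or over the body. Pax5, the B-lineage commitment factor, had EZH2 at 13.4, SUZ12 at 11.2 and H3K27me3 at 8.92. Pax5 also had 1 narrow H3K4me3 peak of fold 2.96, whose summit lay 1297 bp inside the gene under SUZ12 and H3K27me3 peaks, and no H3K27ac, N-MYC or p300 peak in its body.

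Pax7, a factor of muscle stem cells, combined a Polycomb-covered start with acetylation deeper in the gene. At the start it had EZH2 at 14.6, SUZ12 at 14.3 and H3K27me3 at 24.1. In the body lay 8 H3K27ac peaks between chr4:139811402 and chr4:139818832, with summits 14879 to 21664 bp from the start and folds of 2.91 to 8.997. The strongest, chr4:139812684-139814495, was 1812 bp wide. None of the 8 overlapped a peak of EZH2, SUZ12 or H3K27me3, and no H3K4me3, N-MYC or p300 peak lay in the body.

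Of the Lhx genes, 7 of 8 had all 3 Polycomb lists and none had an active list at the start. Lhx9, a gonad and limb regulator, had the highest EZH2 fold of all 49 genes, 23.3, at rank 13 of the 9500 genes with a call, with SUZ12 at 19.9 and H3K27me3 at 17.3. Its EZH2 peak, chr1:138835058-138849973, was 14916 bp wide and covered the annotated 5′ end. Lhx2, a hair follicle, eye and forebrain regulator, had EZH2 at 15.5, SUZ12 at 13.0 and H3K27me3 at 14.7. Lhx3, a pituitary and motor neuron factor, had H3K27me3 alone at the annotated 5′ end (11.6), while EZH2 at 6.46 and SUZ12 at 7.58 lay farther inside its body. Lhx4, its close relative, had the lowest EZH2 fold of the family at the start, 4.43, beside the highest H3K27me3 fold of the whole set, 28.5. Over its body EZH2 reached 14.9 and SUZ12 14.9, and a weak H3K4me3 peak (2.89) and a p300 peak (3.84) were called 9460 and 29338 bp from the start. For Lhx3 and Lhx4 the stronger subunit peaks thus lay downstream of the annotated end. Both genes have other annotated starts farther inside, the nearest of Lhx4 at 9699 bp from its end. Read within 1 kb of all such starts, Lhx4 had EZH2 at 14.9, SUZ12 at 14.9 and the same weak H3K4me3 peak. Lhx3 had EZH2 at 5.20 and SUZ12 at 7.58 in that reading. For Lhx4 the low subunit calls thus belong to the outer gene end only. For Lhx3 the EZH2 fold in that reading was still below the median of 5.84 over all gene starts with a call. Its SUZ12 fold was above the corresponding median of 5.82.

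The Irx genes fell into 2 chromosomal clusters with different values. Irx1, Irx2 and Irx4 lie on chromosome 13, and their start EZH2 folds were 5.27, 3.70 and no call. Their SUZ12 folds were 4.85, 3.13 and 3.09, among the lowest of the set, while H3K27me3 was at 18.2, 19.98 and 15.6 and covered each body fully. The EZH2 peak at the Irx2 start was only 231 bp wide and the H3K27me3 peak 19867 bp. For Irx2 and Irx4 these are readings at the outer gene end. The nearest start with a promoter sequence lies 4390 bp inside at Irx2 and 908 bp at Irx4. Within 1 kb of all such starts, EZH2 was at 4.79 at Irx2 and 3.82 at Irx4. SUZ12 was at 3.99 at Irx4 and was not called at Irx2. Over its body Irx4 had EZH2 at 4.70, with 43.1% of the body under EZH2 peaks. On chromosome 8, Irx3 had EZH2 at 8.54, SUZ12 at 7.45 and H3K27me3 at 23.4, and Irx5 had 13.1, 19.4 and 11.4. Irx6, their neighbour, was the only gene of the 49 with no peak of any list at its start, and had only H3K27me3 over 17.0% of its body at a fold of 4.55. In the Irx genes, a high mark and a low subunit call thus occurred side by side on chromosome 13.

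Irx5 was counted as bivalent on thin grounds. An H3K4me3 peak of fold 28.1, chr8:92354133-92356797, reached its start window by 2 bp, with its summit 2036 bp from the nearer gene end. That peak lay over Crnde, a neighbouring RNA gene, and did not touch the Irx5 body. The strand of Irx5 was not known from the reference used here.

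All 6 Dlx genes had the 3 Polycomb lists at the start, and 3 of the 6 had H3K4me3 as well. Dlx1 and Dlx2, a neighbouring pair that drives forebrain interneuron development, shared 1 EZH2 peak, chr2:71526460-71548790, which was 22331 bp long with a fold of 18.3. They also shared 1 SUZ12 peak (21473 bp, fold 12.1) and 1 H3K27me3 peak (20807 bp, fold 12.3). Inside this shared stretch, small H3K4me3 peaks of fold 6.63 (955 bp wide) and 5.19 (357 bp wide) were called at Dlx1 and Dlx2. Both folds were below the median of 26.5 over all gene starts with H3K4me3, and below the median of 9.30 over the 970 starts with H3K4me3 and all 3 Polycomb lists. Dlx4 had EZH2 at 14.04, SUZ12 at 12.4 and H3K27me3 at 14.3 together with H3K4me3 at 4.51 and N-MYC at 3.74. The N-MYC peak was 206 bp wide, lay 79 bp from the gene end by its summit, and also overlapped the antisense gene Dlx4os, so it cannot be given to one of them. The median N-MYC fold over all starts with a call was 6.01.

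Dlx5, a limb and jaw regulator, had the lowest EZH2 fold of the family, 8.15, with SUZ12 at 8.29 and H3K27me3 at 8.11. Dlx5 and its neighbour Dlx6 lay under 1 shared H3K27me3 peak of 37140 bp. Joining peaks with gaps of at most 3 kb put the pair into 1 EZH2 stretch of 33785 bp and 1 SUZ12 stretch of 34916 bp. Dlx3 and Dlx4, the remaining pair, shared no single peak and only a joined H3K27me3 stretch of 201590 bp. With starts within 50 kb counted as 1 locus, the 49 genes formed 45 loci, of which 4 held 2 genes.

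Of the sine oculis homeobox genes, 5 of 6 had all 3 Polycomb lists and no active list. Six4, a muscle regulator, had the highest EZH2 fold at 14.1, with SUZ12 at 10.8 and H3K27me3 at 11.0. Six6, an eye and pituitary factor, had EZH2 at 12.4, SUZ12 at 10.8 and H3K27me3 at 24.8.

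Six5, the gene next to the myotonic dystrophy kinase gene Dmpk, was the only family gene with H3K4me3 and no H3K27me3. Its start had H3K4me3 at 24.0, H3K27ac at 13.9, p300 at 7.63, N-MYC at 6.62 and EZH2 at 4.71, the lowest EZH2 fold of the family. Its EZH2 peak was 800 bp wide, and neither SUZ12 nor H3K27me3 was called at the start or over the body. The H3K4me3 peak, chr7:19093344-19096584, also overlapped Dmpk, as did the stronger of 2 p300 peaks, while the N-MYC and H3K27ac peaks overlapped Six5 alone. The median fold over all genes with that call at the start was 26.5 for H3K4me3, 12.3 for H3K27ac, 5.38 for p300, 6.01 for N-MYC and 5.84 for EZH2.

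All 14 Nkx genes had the 3 Polycomb lists and none had an active list at the start. Nkx2-3, a regulator of spleen and gut vasculature, had the highest EZH2 fold at 20.7, with SUZ12 at 17.1 and H3K27me3 at 17.1. Nkx2-4 followed with EZH2 at 20.1, SUZ12 at 18.1 and H3K27me3 at 12.2. The lowest was Nkx6-2, a neural tube factor, with EZH2 at 3.87, SUZ12 at 7.51 and H3K27me3 at 21.5. Several members are known oncogenes when switched on in human T-cell leukaemia. Of these, Nkx2-1, also the thyroid and lung regulator, had EZH2 at 6.16, SUZ12 at 9.28 and H3K27me3 at 23.3. Nkx2-2, a neural and islet factor, had 8.99, 9.52 and 12.6, and Nkx2-5, the heart regulator, had 12.1, 15.8 and 20.9. An N-MYC peak of fold 3.58 lay in the Nkx2-2 body 17207 bp from the annotated start, outside its Polycomb peaks, and an H3K4me3 peak of fold 3.33 in the Nkx3-2 body under all 3 of them. In these cells Nkx2-1, Nkx2-2 and Nkx2-5 had no H3K4me3, H3K27ac or p300 peak at the start or over the body.

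Within the 44 genes with all 3 lists, the 2 subunits followed each other and the mark did not. The rank correlation (Spearman) of start folds was 0.81 between EZH2 and SUZ12, -0.30 between EZH2 and H3K27me3, and -0.12 between SUZ12 and H3K27me3. With 1 gene per locus (n = 40) the first 2 were 0.81 and -0.36. Over all 2662 genes with the 3 lists the same 3 correlations were 0.74, 0.34 and 0.47. These are descriptions across genes of single libraries, the genes are not independent replicates, and the summit of a wide peak may lie outside the window. The genes with H3K27me3 above 18 and EZH2 below 6 were Lhx4, Nkx6-2, Irx2, Nkx2-9 and Irx1, picked after their values were seen. For Lhx4 this holds at the outer gene end only, since EZH2 was at 14.9 at an annotated start farther inside.

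**Figure D5:**
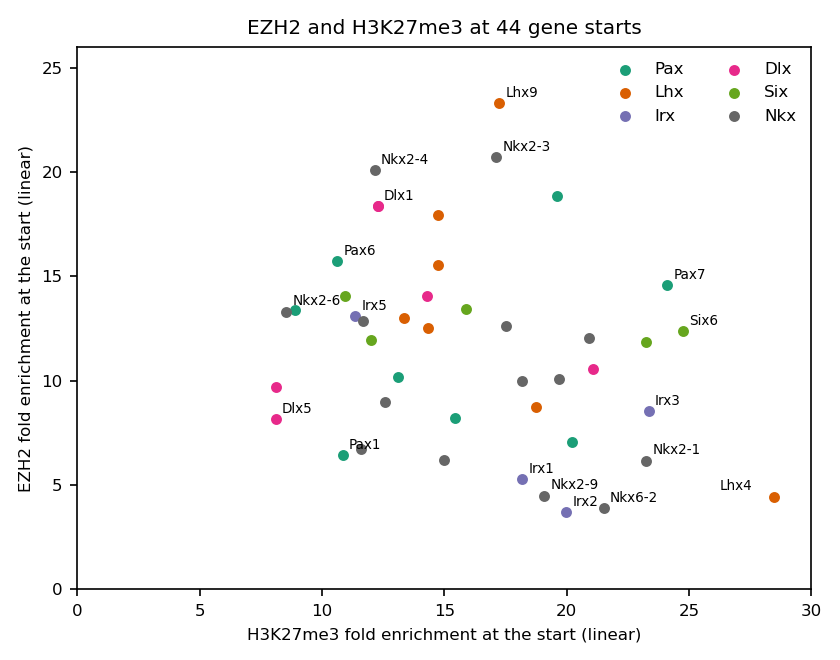
EZH2 fold (y axis) against H3K27me3 fold (x axis) at the start for the 44 genes with all 3 Polycomb lists, both linear, 1 point per gene coloured by family, from 1 library per antibody. Lhx9 and Nkx2-3 stand at the top, and Lhx4 at the far right with a low EZH2 fold at its outer gene end. The points show no rise of EZH2 with H3K27me3 (Spearman -0.30).

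The cofactors of these families showed a mixed picture. Of 28 partner genes, 8 had all 3 Polycomb lists and 9 had H3K4me3 without H3K27me3, against 12.2% and 41.7% of all genes. In the Eya and Dach group, phosphatases and corepressors that act with Pax and sine oculis homeobox factors, 3 of 6 had all 3 lists (Dach1, Eya2, Eya4). Of these, Dach1 also had H3K4me3 at 5.01 and Eya2 H3K27ac at 7.69. Eya3 had H3K4me3 at 31.1 without H3K27me3. Among 9 LIM-domain partners of the Lhx factors, Ssbp2, Ssbp3 and Ssbp4 had H3K4me3 at 43.7, 28.5 and 33.0 without H3K27me3. Lmo4 was the only one of the 9 with all 3 Polycomb lists. It also had H3K4me3 at 19.8, H3K27ac at 6.79 and N-MYC at 6.25. Of 6 Groucho corepressors, Tle3, Tle4 and Tle5 had H3K4me3 between 35.7 and 41.0 without H3K27me3, and Tle1 had all 3 lists (EZH2 14.8) with H3K4me3 at 5.89. Of 7 TALE partners, Meis1, Meis2 and Pbx3 had all 3 lists, and Pbx3 also had H3K4me3 at 27.4. Pbx2 and Pbx4 had H3K4me3 at 35.0 and 18.1 without H3K27me3.

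The labelled cell type was checked on marker genes read in the same way. All 10 T cell markers, Cd3d, Cd3e, Lck and Tcf7 among them, had H3K4me3 (14.2 to 41.8) and H3K27ac at the start. H3K4me3 was called at 3 of 6 B cell markers with folds of 4.49 to 5.75, at 2 of 6 thymic epithelial markers (Ccl25 at 36.8 and Epcam at 19.3), at 1 of 4 myeloid markers and at none of 4 fibroblast or 4 endothelial markers. Ccl25 also had H3K27ac at 23.2, p300 at 7.13 and N-MYC at 5.14, in the range of the T cell markers. Krt8 had all 3 Polycomb lists, and the other 3 thymic epithelial markers, Foxn1, Psmb11 and Krt5, had no peak of any list. The part of other cell types in the calls at the 49 genes was not tested.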

How the data were processed

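Peak lists of 7 immunoprecipitations, 1 library each, were used. Reads were aligned to mm10 (GRCm38), and FastQC, Bowtie2, SAMtools, MACS2 and deepTools are named, per the submitters' processing notes; versions, filters, pooling and the use of the inputs are not given in the sources used here. Fold enrichment, a linear ratio, was taken as deposited by the authors. The p-value and q-value are −log10 values as deposited, and the lowest −log10 q was 2.00 to 2.08. Columns were identified from the file layout and values.

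Gene positions and promoter sequences came from RefSeq (GRCm38.p6), on 19 autosomes, X and Y. Overlaps were computed with Python 3.11.15, numpy 2.4.6 and pandas 2.3.3, and tested on simulated data. Strand was known for 35 genes; the other 14 had no promoter entry. The members and lists were chosen with earlier results of these data known. Named were the highest and lowest EZH2 start fold of each family, members with an active peak or no Polycomb peak at the start, members linked to T-cell leukaemia or lymphocytes, and members within 50 kb of each other, of which some are not reported here; genes named beyond these were chosen after their values were seen. Printed promoters were limited to members whose table start is the gene's 5′ end, a change made after the planned Lhx9 and Dlx1 stretches were found to lie inside the gene. Alternatives were a 5 kb window, stricter thresholds, lists of equal length and summits. No count test was possible, since no reads were used.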

Additional observations from a re-analysis of the deposited data

How the results depend on the processing

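Over 22 results and 172 alternative values, 153 stayed inside the 95% interval of the reported value (Wilson for shares, order statistics for medians) and 19 did not. Requiring the summit in the start window gave 53.1% for EZH2, 42.9% for SUZ12, 20.4% for H3K27me3, 10.2% for all 3 Polycomb lists, 0% for H3K4me3 with H3K27me3 and 28.6% for no peak. Requiring it in the gene body gave 85.7% for EZH2, 69.4% for SUZ12 and 63.3% for H3K27me3. All alternative values are for the family genes, with no share of all genes under the same setting beside them. A window of 5 kb gave 100% for H3K27me3, 0% for H3K4me3 without H3K27me3 and 0% for no peak. Cutting each list to its 9798 strongest peaks, the length of the shortest, gave 4.08% for H3K4me3 at starts, 2.04% for H3K4me3 with H3K27me3 and 2.04% for H3K4me3 over bodies. N-MYC over bodies was 2.04% with a stricter q and 2.04% with a fold of at least 4. Adding 5 kb on either side of the body gave a median H3K27me3 covered share of 92.0%. With the 35 genes of known strand alone, no peak was at 0%; this alternative and the reading of either end for every gene were added after seeing the data. Where a value moved, the cause was not tested, beyond what the settings do by construction. No library could be left out and no paired analysis was possible because each antibody has 1 library. Depth is unknown, so a missing call cannot be told from low coverage.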
